A study of Mus musculus with 2 samples.

Results

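The genes described here are named for their place in the genome and are mostly noncoding. They are opposite-strand genes, which carry the symbol of a neighbouring gene with the suffix os, and host genes of small nucleolar RNAs (snoRNAs), namely Gas5 and the Snhg genes. They were taken by symbol from all genes with counts in mature mouse oocytes: 133 of 18364 genes matched the naming rule. Of these, 117 are opposite-strand genes and 8 are snoRNA-host genes, which gives the 125 genes followed below. The other 8 matched by spelling only, since they are ordinary protein-coding genes whose symbols end in the same letters. Neat1 and Malat1 are not analysed here. The oocytes had been ovulated naturally by ICR mice and were mature eggs waiting in the second meiotic metaphase (MII). The aged pool came from females of 12 months and the young pool from females of 3 months, in a series whose title concerns the mitotic checkpoint gene BubR1 in oocyte ageing. Each pool held 18 oocytes, 3 from each of 6 females, and was made into 1 library, with no other treatment or genotype in the labels. Counts of reads per gene summed to 18597656 in the aged pool and 19475110 in the young pool.

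snoRNA-host genes are transcribed as spliced RNAs whose introns release snoRNAs, the guides that direct chemical modification and processing of ribosomal RNA. Many host transcripts begin with a run of pyrimidines shared with ribosomal protein messages, and the spliced Gas5 RNA is known as a target of nonsense-mediated decay. Opposite-strand transcripts can start back to back with the partner from a shared promoter region or run across the partner's exons or introns. The mature oocyte is transcriptionally silent, so its RNA is a store laid down during growth and drawn down during maturation. Levels are given as counts or as CPM, the count relative to the library total, and all ratios are aged over young after scaling to those totals.

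A single library stood for each age, so the spread between females could not be measured and no test of age was possible. Most ratios of the followed genes are given with a 95% exact (Clopper-Pearson) counting interval, those of partners and comparison genes mostly without. That interval covers counting error only, and amplification without molecular identifiers means that reads are not independent molecules. A gene whose counts averaged 20 or more is said to lie above the floor, and a gene counts as higher or lower when its ratio reaches 2-fold. There were 10211 such genes in all. Of these 27.9% reached 2-fold in favour of the aged pool and 10.6% in favour of the young pool, and the median log2 ratio of all of them was 0.43. All 11 oocyte markers lay above the floor, with a summed level of 91458 CPM in the aged pool and 167921 CPM in the young pool. Most of this sum came from Gdf9, with 42795 CPM in the aged pool and 97099 in the young pool, and H1foo, with 39296 and 53502. The markers did not share a direction: 1 of the 11 reached 2-fold higher and 4 reached 2-fold lower, with a median log2 ratio of −0.55. Of 16 cumulus and granulosa cell markers, 11 had counts, summing to 64.8 CPM in the aged pool and 28.4 CPM in the young pool, most of it from Cyp19a1 with 1056 and 436 counts. Nr5a2 had 106 counts in the aged pool and 38 in the young pool, and Kitl had 22 and 30. Of the 8 others, each with at most 27 counts in a pool, Inha, Vcan and Ptgs2 were at 0 in the aged pool and Fshr and Has2 at 0 in the young pool. The 7 stromal and endothelial markers summed to 39.8 CPM in the aged pool and 23.5 CPM in the young pool, mostly from Pecam1 with 723 and 381 counts, while Vim had 0 and 51. The part of other cells in the values below was not tested.

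The start regions of 3 snoRNA-host windows are shown because they belong to the hosts with the most counts, the largest ratio upward and the largest ratio downward. Sequences and starts are those of RefSeq on GRCm38.p6, another build than the one the counts were made on (mm9). Each line runs from 20 bases before to 30 bases after an annotated start, and capitals mark the longest run of C and T that reaches within 10 bases of it. Gas5 has a pair of annotated starts, of which the downstream one is shown (chr1:161035146-161035195, plus strand). Snhg12 is at chr4:132308658-132308707, plus strand, and Snhg9 at chr17:24719936-24719985, minus strand.
Gas5: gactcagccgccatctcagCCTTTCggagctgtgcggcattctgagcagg
Snhg12: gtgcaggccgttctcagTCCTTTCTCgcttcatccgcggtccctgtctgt
Snhg9: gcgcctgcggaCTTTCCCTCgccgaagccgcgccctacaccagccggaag
The run held 6 bases at this start of Gas5 and 9 at both Snhg12 and Snhg9. At the upstream start of Gas5, which is not printed, it held 3, a length that 82.9% of windows reach. A run of at least 9 was found in 9.55% of all 32851 promoter windows and a run of at least 6 in 29.2%. Over all 8 host genes, which have 10 annotated starts, a run of at least 5 was present in 5 windows, against 44.9% of all windows. The letters TATAAA or TATATA, on either strand within 250 bases before and 50 after the start, were present in 4 of the 10, against 17.1% of all windows. These matches describe the letters only. Snhg12 and Snhg9, which have equally long runs, were picked for ratios in opposite directions. No link between run and ratio can therefore be read from them.

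Gas5 (ENSMUSG00000053332, chromosome 1), the snoRNA host known for its build-up in growth-arrested cells, was the one host gene above the floor, with 448 counts in the aged pool and 285 in the young pool. Its level was 24.1 CPM in the aged pool against 14.6 CPM in the young pool, 1.65-fold higher (interval 1.42 to 1.92). The interval lies above equality and below 2-fold, and the log2 ratio of 0.72 was 0.29 above the median gene. Gas5 thus stood close to where most genes of these libraries stood.

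The 7 Snhg genes together held 103 counts in the aged pool and 87 in the young pool, and they did not share a direction. Snhg12, which hosts H/ACA and C/D snoRNAs, had 24 counts in the aged pool and 3 in the young pool, a ratio of 8.38 with an interval from 2.54 to 43.5. Snhg11 had 20 counts in the aged pool and 5 in the young pool, a ratio of 4.19 (interval 1.53 to 14.3). Snhg17 had 12 counts in the aged pool and 3 in the young pool, also a ratio of 4.19 (interval 1.13 to 23.1). Among these 3 genes, the interval lay wholly beyond 2-fold for Snhg12 alone. Snhg9, which shares 7.65% of its exonic bases with the ribosomal protein gene Rps2, lay on the other side, with 8 counts in the aged pool and 30 in the young pool, 3.58-fold lower (interval 1.60 to 9.04). Snhg15 had 19 counts in the aged pool and 18 in the young pool, Snhg20 had 15 and 22, and Snhg3, of which 86.3% of exonic bases lie in other genes, had 5 and 6. The intervals of Snhg15, Snhg20 and Snhg3 included equality. All 7 Snhg genes lay below the floor, where a few counts move a ratio far.

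The snoRNAs encoded inside these hosts were counted as genes of their own. Gas5 spans 10 annotated snoRNA genes, of which 7 had counts, summing to 22 in the aged pool and 4 in the young pool. Snora73b, an H/ACA snoRNA within Snhg3, had 89 counts in the aged pool and 61 in the young pool, more than Snhg3 itself. Snora73a, also within Snhg3, had 0 counts in the aged pool and 5 in the young pool. The cDNA was primed with oligo(dT), and whether reads at any of these genes come from mature snoRNAs was not tested. Snora9 had 17 counts in the aged pool and 9 in the young pool, inside Snhg15. The small Cajal body RNA gene within Snhg20, Gm26083, had 9 counts in the aged pool and 21 in the young pool, beside the 15 and 22 of Snhg20 itself. Snora9, Gm26083 and all 10 snoRNA genes of Gas5 lie within annotated exonic bases of their hosts, so reads of the snoRNA and of the host cannot be told apart there.

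**Figure D1:**
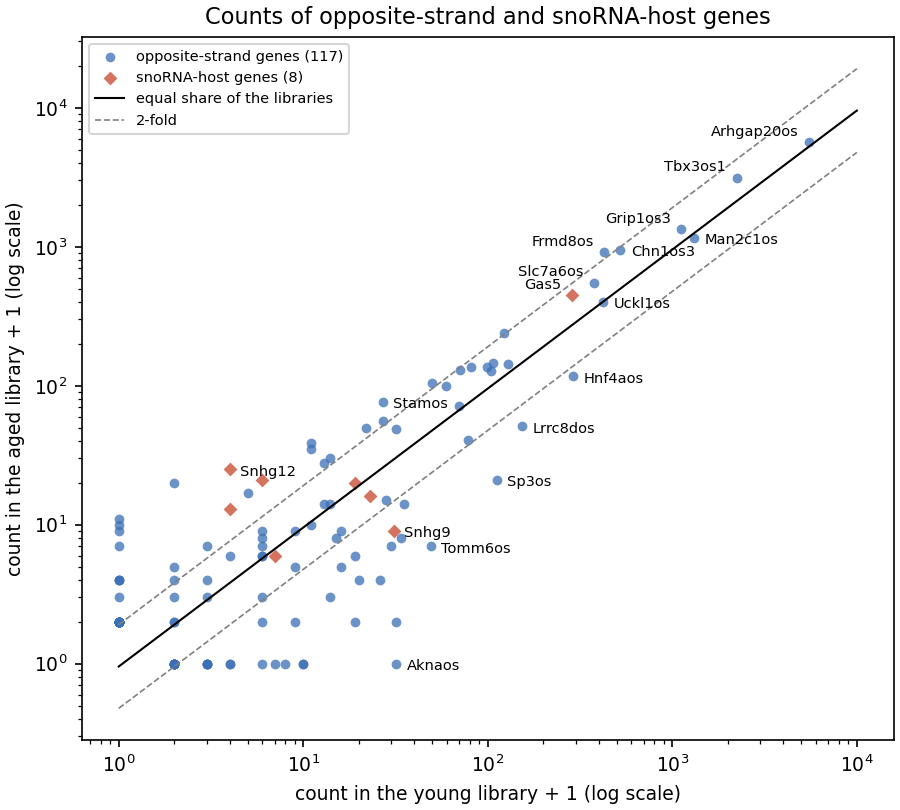
Counts plus 1 of the 125 genes in the aged pool (vertical axis) and the young pool (horizontal axis), both on log scales, with blue circles for opposite-strand genes and red diamonds for snoRNA-host genes. The solid line marks an equal share of both libraries and the dashed lines mark 2-fold. Arhgap20os and Tbx3os1 lie at the upper right near the solid line, and most genes lie at the lower left with few counts.

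Of the 117 opposite-strand genes, 33 lay above the floor, a share of 28.2%. For other long noncoding genes that share was 27.2%, and for protein-coding genes it was 65.3%. The 84 opposite-strand genes below the floor had a median of 1.75 counts as mean of both libraries. Of these, 20 were at 0 in the aged pool and 29 at 0 in the young pool, and 45 had at most 3 counts in both. Of all 893 other long noncoding genes with counts, 194 were at 0 in the aged pool and 196 in the young pool, and 347 had at most 3 in both. For all 18364 genes with counts these numbers were 1958, 2047 and 3648. GENCODE mouse release 21 annotates 8 of the 117 as protein-coding and 100 as antisense, and it also lists the host Snhg11 as protein-coding. Chromosomes 2, 4 and 11 held 46.2% of opposite-strand genes, against 42.7% of other long noncoding genes with counts and 24.6% of all genes with counts.

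A few transcripts made up most of the counts. The 4 most abundant opposite-strand genes took 67.1% of all counts of the 125 genes in the aged pool and 70.2% in the young pool. Arhgap20os (ENSMUSG00000074354, chromosome 9) led with 5684 counts in the aged pool and 5514 in the young pool, which is 306 CPM and 283 CPM. Its ratio of 1.08 (interval 1.04 to 1.12) was close to equality. Tbx3os1 (chromosome 5) had 3143 counts in the aged pool and 2230 in the young pool, 1.48-fold higher (interval 1.40 to 1.56). Grip1os3 (chromosome 10) had 1341 counts in the aged pool and 1118 in the young pool, 1.26-fold higher. Man2c1os (chromosome 9) had 1165 counts in the aged pool and 1316 in the young pool, with an interval that included equality. The ratios of all 4 lay within 2-fold. Relative to the median gene, Arhgap20os was at −0.32 and Grip1os3 at −0.10 on the log2 scale, so the sign of these small differences turns with the scaling. Among the partners, Tbx3 was 1.47-fold lower, with 132 counts in the aged pool and 203 in the young pool. Grip1 was 2.14-fold and Man2c1 1.65-fold higher, and Arhgap20 had a ratio of 1.16 whose interval included equality.

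Among the 34 genes above the floor (33 opposite-strand genes and Gas5), 9 reached 2-fold higher and 6 reached 2-fold lower in the aged pool, and all of these were opposite-strand genes. These are shares of 26.5% and 17.6%, beside the 27.9% and 10.6% of all genes above the floor. Of the 243 other long noncoding genes above the floor, 34.2% were higher and 8.23% lower. The median log2 ratio of the 34 was 0.55 and that of all genes 0.43. The interval lay wholly beyond 2-fold for 1 higher and 3 lower members, where the same holds for 18.0% and 6.35% of all genes above the floor. Relative to the median gene, 3 of the 34 reached 2-fold higher and 8 reached 2-fold lower, where 16.0% and 17.3% of all genes were. For the other 11 of the 15 genes past 2-fold, the interval reached inside 2-fold.

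**Figure D2:**
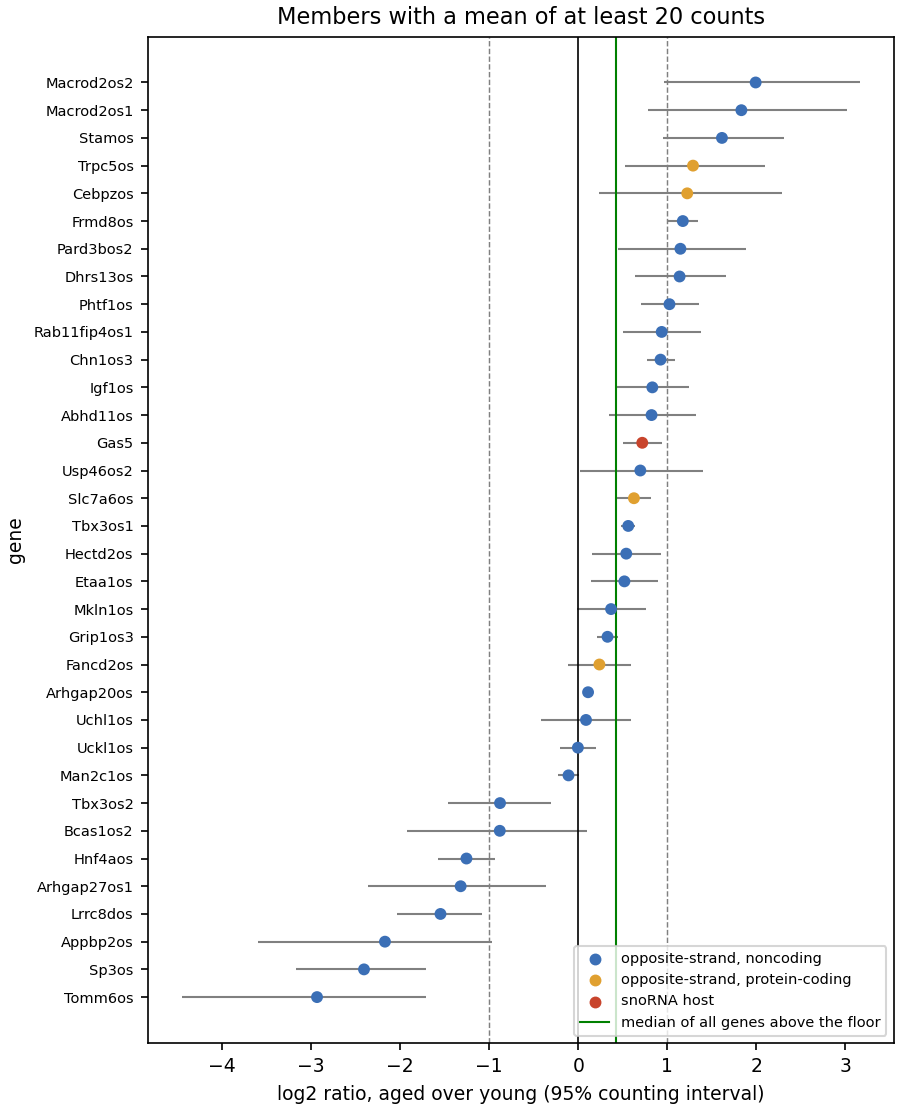
Log2 ratio of aged over young with its 95% counting interval for each of the 34 genes above the floor, ordered by ratio, with blue points for noncoding and orange points for protein-coding opposite-strand genes and a red point for Gas5. The black line marks equality, the dashed lines mark 2-fold and the green line the median of all genes above the floor. From Macrod2os2 at 1.99 to Tomm6os at −2.93 the ratios spread on both sides of equality.

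Frmd8os (ENSMUSG00000043488, chromosome 19) was the higher member whose interval lay wholly beyond 2-fold, with 916 counts in the aged pool and 425 in the young pool. It was 2.26-fold higher (interval 2.01 to 2.54), a log2 ratio of 1.17. The ratio was under 2-fold with the other 3 scalings, at log2 values of 0.75 centred on the median gene, 0.80 with TMM and 0.89 without the 100 most abundant genes. Its partner Frmd8, a FERM domain gene, was 1.31-fold higher, with 4898 counts in the aged pool and 3929 in the young pool. Frmd8 exons cover 63.4% of the exonic bases of Frmd8os, so part of these reads could belong to either gene.

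Stamos, Cebpzos and Phtf1os were higher and had partners with a ratio above equality. Stamos (chromosome 2) had 76 counts in the aged pool and 26 in the young pool, 3.06-fold higher (interval 1.94 to 4.98). Its partner Stam, an adaptor of endosomal sorting, was 2.97-fold higher, with 204 counts in the aged pool and 72 in the young pool. Cebpzos (chromosome 17), itself annotated as protein-coding, had 29 counts in the aged pool and 13 in the young pool, 2.34-fold higher. Its partner Cebpz, a factor of ribosome assembly, was 2.05-fold higher, with 143 and 73 counts. Phtf1os (chromosome 3) had 237 counts in the aged pool and 122 in the young pool, 2.03-fold higher (interval 1.63 to 2.55), beside a ratio of 1.63 for Phtf1. Corrected for the length and GC content of genes, Phtf1os was at −0.066 on the log2 scale. These 3 are grouped here by their partners' ratios, in a comparison where 66.4% of all genes above the floor had a ratio above equality. Phtf1os shares 63.0% of its exonic bases with Phtf1 and Rsbn1, and Stamos shares none with another gene.

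Macrod2os1 and Macrod2os2 (both chromosome 2) are a pair of transcripts within the span of Macrod2, which encodes an ADP-ribose hydrolase, and their exons overlap each other. Macrod2os1 had 34 counts in the aged pool and 10 in the young pool, 3.56-fold higher (interval 1.72 to 8.08). Macrod2os2 had 38 counts in the aged pool and 10 in the young pool, 3.98-fold higher (interval 1.95 to 8.96). Because they share exonic bases, they are not independent of each other. Macrod2 itself had 528 counts in the aged pool and 264 in the young pool, 2.09-fold higher.

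Pard3bos2, Trpc5os and Dhrs13os were higher while the partner had a lower count in the aged pool. Pard3bos2 (chromosome 1) had 55 counts in the aged pool and 26 in the young pool, 2.22-fold higher (interval 1.37 to 3.68). Corrected for length and GC content, its log2 ratio changed sign to −0.28. Pard3b, a cell polarity gene, had 22 counts in the aged pool and 54 in the young pool, 2.34-fold lower. Trpc5os (chromosome X), annotated as protein-coding, had 49 counts in the aged pool and 21 in the young pool, 2.44-fold higher (interval 1.44 to 4.29). The calcium-permeable channel gene Trpc5, just below the floor, had 8 counts in the aged pool and 30 in the young pool. Dhrs13os (chromosome 11) had 103 counts in the aged pool and 49 in the young pool, 2.20-fold higher (interval 1.55 to 3.16), beside 8 and 13 counts for Dhrs13. Dhrs13 lay below the floor, and the interval of its ratio included equality. Neither Pard3bos2 nor Trpc5os shares exonic bases with another annotated gene.

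The lower members included the ratios furthest from equality. Tomm6os (chromosome 17) had 6 counts in the aged pool and 48 in the young pool, 7.64-fold lower (interval 3.26 to 21.8). Other genes, Tomm6 among them, cover 51.3% of the exonic bases of Tomm6os. Its partner Tomm6, a small subunit of the mitochondrial import pore, was 1.88-fold lower, with 164 counts in the aged pool and 323 in the young pool. Sp3os (ENSMUSG00000063714, chromosome 2) had 20 counts in the aged pool and 111 in the young pool, 5.30-fold lower (interval 3.27 to 9.01). The transcription factor gene Sp3 had 23 counts in the aged pool and 17 in the young pool, a ratio of 1.42 whose interval included equality. Lrrc8dos (chromosome 5) had 50 counts in the aged pool and 153 in the young pool, 2.92-fold lower (interval 2.11 to 4.11), while the anion channel gene Lrrc8d was 1.23-fold lower from 715 and 921 counts. These are the 3 lower members whose intervals lay wholly beyond 2-fold.

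Appbp2os (chromosome 11) had 7 counts in the aged pool and 33 in the young pool, 4.50-fold lower (interval 1.96 to 12.1). Appbp2, an adaptor of a ubiquitin ligase, was 1.93-fold higher from 439 and 238 counts, so the pair lay on opposite sides of equality. Hnf4aos (chromosome 2) had 116 counts in the aged pool and 290 in the young pool, 2.39-fold lower (interval 1.92 to 2.99). Its partner Hnf4a, a nuclear receptor of liver and gut, had 0 counts in the aged pool and 2 in the young pool, so Hnf4aos was measured with next to no partner RNA, and their exons do not overlap. Arhgap27os1 (chromosome 11) had 13 counts in the aged pool and 34 in the young pool, 2.50-fold lower (interval 1.28 to 5.16), and its partner Arhgap27 is not analysed here. Other genes cover 82.1% of the exonic bases of Arhgap27os1.

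The other opposite-strand genes above the floor lay within 2-fold, from Bcas1os2 and Tbx3os2 at log2 ratios of −0.88 to Rab11fip4os1 at 0.94. Chn1os3 (chromosome 2) had 946 counts in the aged pool and 522 in the young pool, 1.90-fold higher (interval 1.70 to 2.12), next to 1.83-fold for Chn1, which encodes a Rac-regulating protein of axon guidance. Rab11fip4os1 had 128 counts in the aged pool and 70 in the young pool, 1.92-fold higher, and the Rab11 effector gene Rab11fip4 was 1.79-fold higher. Igf1os had 136 counts in the aged pool and 80 in the young pool, 1.78-fold higher, while the growth factor gene Igf1 had 18 and 7 counts. Slc7a6os, a protein-coding gene whose yeast relative Iwr1 acts in nuclear import of RNA polymerase II, had 551 counts in the aged pool and 374 in the young pool, 1.54-fold higher. Its partner Slc7a6 lay below the floor, with 18 and 8 counts. Uckl1os had 400 counts in the aged pool and 420 in the young pool, while the nucleoside kinase gene Uckl1 was 2.03-fold lower from 82 and 174 counts. Abhd11os, Usp46os2, Hectd2os and Fancd2os had ratios of 1.77, 1.62, 1.45 and 1.18, of which that of Fancd2os lay below the median gene. Among their partners, Abhd11, Usp46 and Hectd2 had ratios of 1.19, 1.02 and 1.38, while Fancd2 was 1.37-fold lower. Bcas1, the partner of Bcas1os2, had a ratio of 1.02. Tbx3os1 and Tbx3os2 share the partner Tbx3 but differed: Tbx3os2 was 1.84-fold lower (interval 1.24 to 2.77), with 40 counts in the aged pool and 77 in the young pool.

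Below the floor, the 5 opposite-strand genes with the most counts were Wdr83os, Kdm6bos, Tnfsf13os, Aknaos and Kank4os. Wdr83os, whose human counterpart is a chaperone of membrane protein insertion, had 27 counts in the aged pool and 12 in the young pool, a ratio of 2.36 (interval 1.15 to 5.11). Its partner Wdr83 was 5.76-fold higher, with 110 counts in the aged pool and 20 in the young pool. Wdr83 exons cover 52.3% of the exonic bases of Wdr83os. The other 4 had fewer counts in the aged pool. Kdm6bos had 6 counts in the aged pool and 29 in the young pool, Tnfsf13os had 1 and 31, and Kank4os had 3 and 25, with intervals of 1.88 to 13.6, 4.93 to 1207 and 2.43 to 41.2 for the fold by which each was lower. Aknaos had 0 counts in the aged pool and 31 in the young pool, at least 7.56-fold lower by its counting interval and 9.87-fold lower with 3 counts put in place of the 0. A 0 in the aged pool allows up to 0.161 CPM. Akna, a gene of microtubule organisation at centrosomes, had 14 counts in the aged pool and 53 in the young pool, 3.62-fold lower.

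GENCODE places 115 of the 117 opposite-strand genes on the strand opposite to the partner, and has no partner of that exact name for the other 2, Zbtb8os and Snhg7os. In 72 genes an exon overlaps an exon of the partner, in 24 the genes overlap without shared exonic bases, and in 11 they do not overlap but start within 1000 bases of each other. The remaining 8 are further away or placed otherwise. Of the 33 above the floor, 23 share exonic bases with some other gene and 10 share none. Whether strand was used in counting is not known from the labels, and the protocol names no step that marks it. If strand was not used, reads of genes on opposite strands cannot be told apart where their exons overlap. Macrod2os1 and Macrod2os2, which are among those 23 genes, share exonic bases only with each other. Both lie on the same strand, so strand could not separate their reads.

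For 27 opposite-strand genes, which have 25 different partners, both the gene and its partner lay above the floor. In 17 pairs both ratios lay on the same side of the median gene, with both above it in 9 and both below it in 8, and in 10 pairs they lay on different sides. The pairs shared the libraries, and Spearman's rank correlation between the log2 ratios of gene and partner was 0.43 over these 27 pairs, given as a description. Among the 19 pairs with overlapping exons, 11 lay on the same side and this correlation was 0.33. Among the 8 without shared exonic bases, 6 lay on the same side and it was 0.35. In 7 pairs the log2 ratios differed by 1 or more, and overlapping exons were present in 6 of these. The median difference in size was 0.77.

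**Figure D3:**
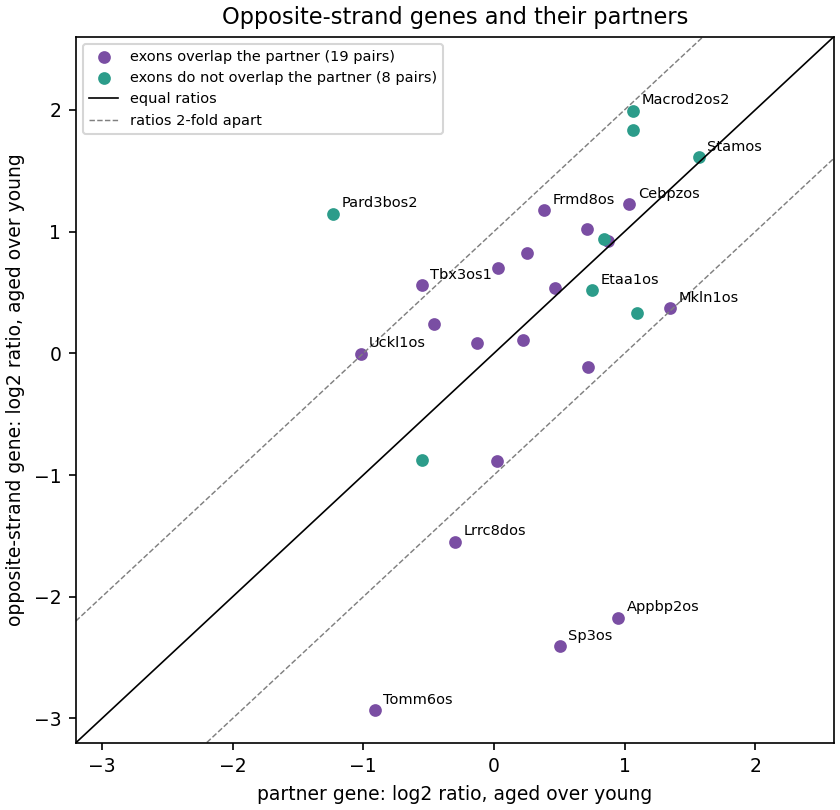
Log2 ratio of aged over young of each opposite-strand gene (vertical axis) and of its partner (horizontal axis) for the 27 pairs above the floor, in purple where exons overlap and in green where they do not. The solid line marks equal ratios and the dashed lines ratios 2-fold apart. Stamos and Cebpzos lie close to the solid line, while Appbp2os, Sp3os and Tomm6os lie far below it and Pard3bos2 far above it.

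In counts, the partner had more than the opposite-strand gene in 20 of the 27 pairs, and per length the split was even. Levels were set to CPM per kilobase of annotated exon, which assumes even coverage and is rough for cDNA primed at the tail. The opposite-strand gene had the higher level in both libraries in 13 of the 27 pairs and the partner in 13. Arhgap20os had 115 CPM per kilobase in the aged pool and 107 in the young pool, while Arhgap20, which encodes a GTPase-activating protein, had 0.34 and 0.29. Man2c1os, Tbx3os1 and Grip1os3 also exceeded their partners, with 29.0 CPM per kilobase in the aged pool and 31.3 in the young pool for Man2c1os, against 0.67 and 0.41 for the mannosidase gene Man2c1. At the other end, Uchl1os had 1.72 CPM per kilobase in the aged pool and 1.62 in the young pool. The deubiquitinase gene Uchl1, abundant in oocytes, had 1113 CPM per kilobase in the aged pool and 1220 in the young pool. The median level of the 33 opposite-strand genes was 2.81 CPM per kilobase in the aged pool and 1.80 in the young pool, beside 2.95 and 2.21 for protein-coding genes above the floor.

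**Figure D4:**
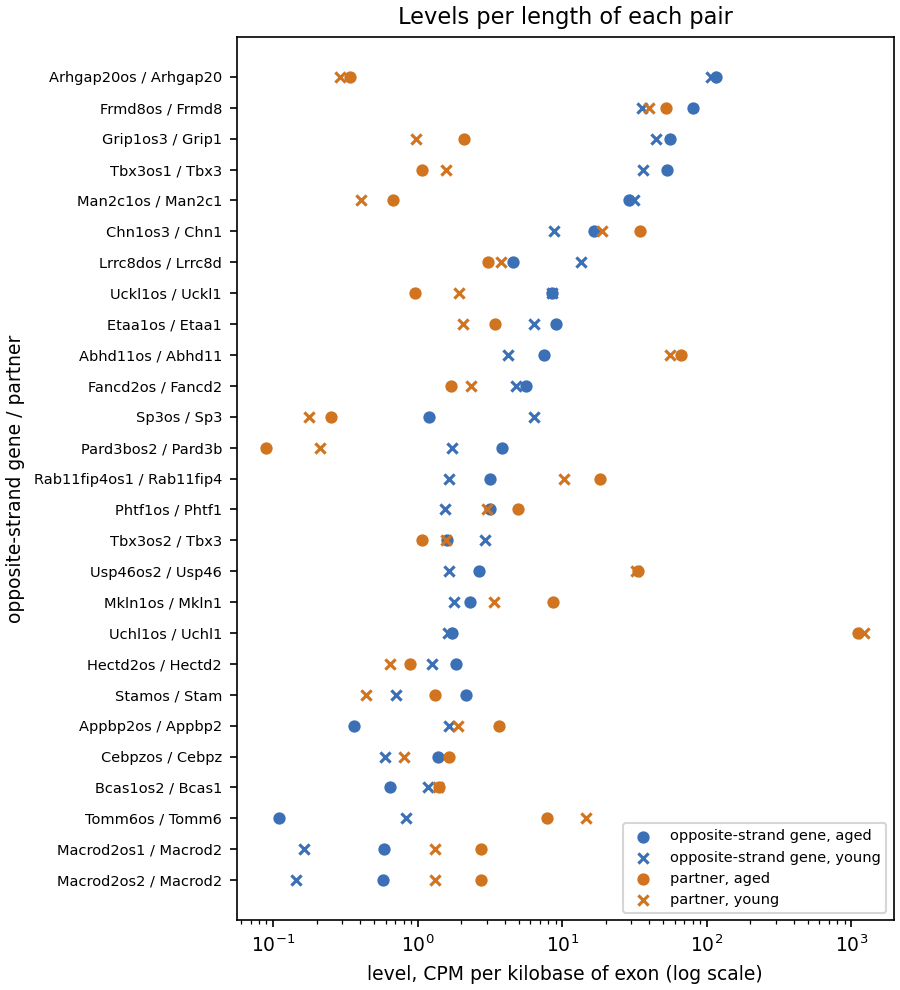
Levels in CPM per kilobase of annotated exon, on a log scale, of each opposite-strand gene (blue) and its partner (orange) in the aged pool (circles) and the young pool (crosses) for the 27 pairs above the floor. The rows are ordered by the level of the opposite-strand gene. Arhgap20os stands far to the right of Arhgap20, and Uchl1os far to the left of Uchl1.

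Some pairs with close starts are shown by sequence because, by the RefSeq starts, a single region there faces both genes. Of the 117 genes, 31 start within 1000 bases of the partner's start on the other strand. Most of these overlap the partner in GENCODE, and 11 of them lay above the floor. Of those 11, the 3 whose starts lie within 250 bases of the partner's are printed, each window running from 250 bases before to 50 bases after the RefSeq start of the opposite-strand gene. Capitals run from the partner's start to the first base of the opposite-strand gene. Etaa1os is at GRCm38.p6 chr11:17953720-17954019, plus strand, Stamos at chr2:14073885-14074184, minus strand, and Mkln1os at chr6:31398724-31399023, minus strand.
Etaa1os: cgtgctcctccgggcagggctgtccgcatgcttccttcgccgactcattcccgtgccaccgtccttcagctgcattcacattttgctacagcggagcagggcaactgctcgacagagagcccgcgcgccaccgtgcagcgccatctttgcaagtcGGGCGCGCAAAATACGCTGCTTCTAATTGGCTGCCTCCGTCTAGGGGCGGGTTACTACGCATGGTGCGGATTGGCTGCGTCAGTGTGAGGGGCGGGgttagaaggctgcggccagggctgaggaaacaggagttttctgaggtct
Stamos: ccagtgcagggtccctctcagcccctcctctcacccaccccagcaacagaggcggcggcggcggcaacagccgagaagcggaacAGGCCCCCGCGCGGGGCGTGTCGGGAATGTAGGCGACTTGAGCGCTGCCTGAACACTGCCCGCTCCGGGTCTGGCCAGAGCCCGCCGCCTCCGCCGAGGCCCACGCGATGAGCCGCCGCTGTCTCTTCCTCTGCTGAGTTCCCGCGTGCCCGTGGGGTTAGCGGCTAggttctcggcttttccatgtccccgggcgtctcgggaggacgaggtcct
Mkln1os: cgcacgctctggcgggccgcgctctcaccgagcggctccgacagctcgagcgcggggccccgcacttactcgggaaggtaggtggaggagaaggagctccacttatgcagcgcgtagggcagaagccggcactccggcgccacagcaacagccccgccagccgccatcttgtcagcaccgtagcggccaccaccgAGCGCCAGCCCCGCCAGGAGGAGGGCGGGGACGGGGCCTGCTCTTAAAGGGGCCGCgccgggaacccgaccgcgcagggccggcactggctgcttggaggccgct
The RefSeq starts lie 95 bases apart for Etaa1os, 166 for Stamos and 55 for Mkln1os. In GENCODE, Mkln1os and Mkln1 start 38 bases apart and their exons share 39 bases. The letters CG occur 25, 32 and 35 times in these windows, against a median of 7 over all promoter windows. At least 25 occurrences were found in 18.4% of windows and at least 35 in 6.95%.

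The ratios of Stamos and Stam are given above. Etaa1os had 145 counts in the aged pool and 106 in the young pool, 1.43-fold higher (interval 1.11 to 1.86). Etaa1, an activator of the checkpoint kinase ATR, was 1.68-fold higher from 268 and 167 counts. Mkln1os had 127 counts in the aged pool and 103 in the young pool, a ratio of 1.29 whose interval included equality (0.99 to 1.69). Mkln1, which encodes muskelin, a ubiquitin ligase subunit, was 2.55-fold higher from 4651 and 1911 counts. Over the 9 pairs above the floor with starts within 1000 bases, 5 lay on the same side of the median gene, and over the other 18 pairs 12 did.

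Genes that work with host transcripts lay on both sides. Of the 12 snoRNP core and assembly genes past the floor, 5 reached 2-fold higher and 3 reached 2-fold lower, with a median log2 ratio of 0.88. For all genes above the floor the shares were 27.9% and 10.6% and the median 0.43, and the lists that follow are read beside the same values. Nop58, a C/D box core protein, was 6.86-fold higher with 760 counts in the aged pool and 116 in the young pool. Nop10, an H/ACA core protein, was 5.20-fold higher with 1797 and 362 counts, whereas Nhp2, of the same complex, was 4.38-fold lower with 36 and 165. Of 24 protein-coding snoRNA hosts above the floor, 5 were higher and 4 lower, beside 27.9% and 10.6% of all genes, with a median of 0.40. Nop56, Nop58 and Dkc1 are on both lists, so the lists are not separate sets. Nop58 and Dkc1, the latter 3.93-fold higher, count among the higher genes of each. Besides Nop58, the ribosomal protein genes Rps20 and Rpl4 were furthest from equality, 5.47-fold lower and 4.65-fold higher. Reads of such ribosomal protein genes can be shared with pseudogenes. The list of hosts thus had a median close to that of all genes.

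Of 13 nonsense-mediated decay genes above the floor, 5 were higher and 2 lower, with a median of 0.13, beside 27.9%, 10.6% and 0.43 for all genes. The kinase gene Smg1 was 7.63-fold higher with 430 counts in the aged pool and 59 in the young pool, and Upf2 was 3.67-fold higher with 424 and 121. The exon junction gene Magoh was 4.38-fold lower with 14432 counts in the aged pool and 66232 in the young pool, and the helicase gene Upf1 3.04-fold lower. Of 22 other named noncoding genes in the annotation, 9 had counts and 5 lay above the floor. Tug1 was 3.58-fold higher with 239 counts in the aged pool and 70 in the young pool, while the imprinted Meg3 was 2.07-fold lower with 54 and 117, and Rn7sk was 2.01-fold lower with 19 and 40. Airn, which silences its imprinted neighbours in cis, was at 757 counts in the aged pool and 762 in the young pool.

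The 8 genes that matched by spelling only are kept apart from these values. Of these, 3 lay above the floor and all were higher, where 27.9% of all genes were. Minos1, a subunit of the mitochondrial cristae complex, was 2.59-fold higher, the nutrient-sensing gene Mios 2.48-fold and the cofactor enzyme gene Mocos 2.33-fold. The other 5, Uros, Pros1, Otos, Selenos and Nrros, had 0 to 4 counts in the aged pool and 1 to 25 in the young pool.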

How the data were processed

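RNA from mature oocytes was measured in 2 libraries, 1 per age. Per the labels' protocols, cDNA primed with oligo(dT) was amplified by PCR, and SOLiD sequencing followed. The genome build mm9 is named in the submitters' processing notes. The deposited values are whole-number counts per Ensembl gene, unnormalized. The aligner, the counting program, the annotation release and the treatment of strand and multiply placed reads were not given in the sources used here.

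Symbols came from GENCODE mouse release 21 and matched 93.7% of genes with counts. That release describes GRCm38, another build than that of the counts. Gene type, strand, start distances, gene and exon overlap, length and GC content were taken from it. Promoter sequences are RefSeq's on GRCm38.p6. A count of 0 was replaced by 3 counts, and no ratio was formed where both counts were at most 3. Ratios and intervals were run on simulated counts with counting error only. That checks the code, not amplification or the spread between females.

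Named genes were Gas5 and all Snhg genes with counts, opposite-strand genes above the floor with their partners, the 5 most abundant below it, and up to 3 members of each side list with the largest difference. The result of 1 side list is not reported here. Airn, Upf1, Dkc1, Nop56, the named oocyte markers and the markers of other cells were named after their values were seen. Members and lists were chosen with earlier results of these data known. Of the marker lists, 2 of 7 stromal and endothelial markers and 1 of 5 blood and immune markers lay above the floor. Alternatives were other scalings, floors, added counts and a correction for length and GC content. Calculations ran in Python 3.11.15 (pandas 2.3.3, numpy 2.4.6, scipy 1.17.1, matplotlib 3.10.9), and edgeR 4.0.16 in R 4.3.3 only for TMM factors.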

Additional observations from a re-analysis of the deposited data

How the results depend on the processing

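No paired analysis was possible because each age has 1 library, and no library could be left out for the same reason. At least 2-fold higher members numbered 9 in the values given above, 3 after centring on the median gene, 3 with TMM scaling, 4 with the 100 most abundant genes kept out of the totals, 3 after the correction for length and GC content, 21 with no floor, 2 with a floor of 100 counts and 1 when the whole interval had to lie beyond 2-fold. Lower members numbered 6, but 22 with no floor, 2 with a floor of 100 counts and 3 by the interval. Among these alternatives, a share of all genes was taken only for centring and for the interval, and is given above. The member counts at the other settings have no such share beside them. The scalings lowered every log2 ratio by 0.43, 0.37 and 0.29. Under them lower members numbered 8, so that the split between higher and lower depends on the scaling. The median log2 ratio of members, 0.55, and that of opposite-strand genes, 0.54, changed sign with the length and GC correction, to −0.061 and −0.055. That correction also centres the genes. Centring alone gave 0.12 and 0.11. With the length and GC correction 2 of the 15 members past 2-fold changed sign, Pard3bos2 at −0.28 and Phtf1os at −0.066, while Gas5 was at −0.19. Trpc5os, Stamos, Dhrs13os, Macrod2os1 and Macrod2os2 stayed above equality and Hnf4aos and Arhgap27os1 below it, but all came inside 2-fold. Abhd11os then passed 2-fold higher, and Tbx3os2 and Bcas1os2 passed 2-fold lower. Pairs on the same side of the median gene were 17 of 27, 39 of 61 with no floor and 7 of 11 with a floor of 100 counts. The side lists together, with the one not reported here among them and shared genes counted once, had 16 higher and 11 lower genes. For all genes above the floor the shares were 27.9% and 10.6%. The pooled number of side-list genes above the floor was not taken, so these counts cannot be read as shares. Higher genes numbered 10 with the length and GC correction, and lower genes 7 with a floor of 100 counts. No share of all genes was taken at those settings. Other sets were chosen after the data were seen. The members that share no exonic base had 3 higher and 1 lower among 10 above the floor. The 133 matches of the rule had 12 and 6 among 37, and the set without protein-coding members had 7 and 6. For all genes above the floor the shares were 27.9% and 10.6%. The cause of these shifts was not tested, beyond the smaller number of genes under stricter floors. Counts below the floor limit all Snhg genes.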
